A study of Homo sapiens with 3 samples.

Results

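The YTHDC1 peaks of human chromosome 17 were all regions that the deposited peak set places on that chromosome, 513 of 6368 peaks, with no further selection. YTHDC1 was mapped on chromatin by ChIP-seq (sequencing of DNA that is precipitated with a protein) in A549 cells, an established human lung adenocarcinoma line, without knockdown. The 3 samples were replicates of 1 group, wild-type cells, and their reads were pooled before the peaks were called, so each peak has 1 value and no spread between replicates. Each value is taken as the −log10 of a peak's q-value, so that a higher value stands for a lower false discovery rate, and it ranks the evidence for a peak rather than the amount of protein bound. Libraries of input DNA, IgG or knockdown cells were not analysed here, the depth of each sample is unknown, and neither the copy number of chromosome 17 in A549 nor transcription of its genes was analysed here.

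YTHDC1 is a nuclear protein of the YTH family that recognises N6-methyladenosine in RNA and is known for roles in splicing, RNA export and transcription. Chromosome 17 is among the most gene-dense human chromosomes. It carries large clusters of genes that are used in few tissues, such as keratins, CC chemokines, olfactory receptors and skeletal myosins, among many genes that every cell uses. It also carries clusters of tRNA genes on the short arm and the repeated genes of U2 small nuclear RNA on the long arm.

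A few sequences show what lay under, or across the edge of, peaks that the results below turn on. The first set comes from the stretch of 17p that holds many tRNA genes and 3 of the 10 strongest peaks of the chromosome. Each line gives 89 bases of the GRCh37 reference around a match to GTTCGANNC, the core letters of the B box, an internal promoter element of tRNA genes that the RNA polymerase III machinery reads. Capitals mark the match, read 5′ to 3′ on the strand that carries it.
Peak with −log10 q of 8.20 (chr17:8029054-8029142, plus strand): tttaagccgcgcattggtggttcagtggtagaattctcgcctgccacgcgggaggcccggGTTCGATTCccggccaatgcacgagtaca
Peak with −log10 q of 7.49 (chr17:8042762-8042850, minus strand): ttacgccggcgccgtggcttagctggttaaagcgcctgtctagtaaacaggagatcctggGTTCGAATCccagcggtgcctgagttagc
Peak with −log10 q of 3.84, first match (chr17:8090185-8090273, plus strand): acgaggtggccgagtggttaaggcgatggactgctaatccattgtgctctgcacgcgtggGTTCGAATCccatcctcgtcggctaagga
Peak with −log10 q of 3.84, second match (chr17:8090471-8090559, plus strand): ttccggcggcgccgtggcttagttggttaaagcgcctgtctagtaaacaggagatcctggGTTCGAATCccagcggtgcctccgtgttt

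The next line gives the 120 bases upstream of INTS2, a protein-coding gene with a start peak over 5, shown because its GC box lay inside the peak and the stretch is free of annotated untranslated sequence. Its 57 bases nearest the gene were in the peak. Capitals mark the box, GGGCGG, a motif of many housekeeping promoters.
INTS2 (chr17:60005378-60005497, minus strand): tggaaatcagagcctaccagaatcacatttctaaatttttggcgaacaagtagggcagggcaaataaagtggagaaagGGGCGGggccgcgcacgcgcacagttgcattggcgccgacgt

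The last lines are the middle of the strongest peak of the chromosome, 150 bases with no capitals because these bases hold none of the 4 motifs searched, and hsa-miR-21-5p from RefSeq, the mature miRNA of the gene beside the widest peak, with its seed (bases 2 to 8) in capitals.
Strongest peak (chr17:41400417-41400566, plus strand): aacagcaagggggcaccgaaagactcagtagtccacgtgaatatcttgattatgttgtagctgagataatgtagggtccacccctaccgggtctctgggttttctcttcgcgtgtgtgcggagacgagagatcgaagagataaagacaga
hsa-miR-21-5p: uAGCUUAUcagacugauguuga

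Chromosome 17 carried more peaks than any other chromosome. Its 513 peaks were 8.06% of the set, on 2.72% of the assembled bases and 5.90% of the protein-coding genes. Counted per length, there were 6.59 peaks per Mb (95% Poisson interval 6.04 to 7.19) against 2.11 on the other chromosomes, a ratio of 3.13. Protein-coding genes were 2.24 times as dense on chromosome 17 as elsewhere. Per 100 protein-coding genes the chromosome held 43.1 peaks (39.5 to 47.0), against 30.9 (30.1 to 31.7) on the others, a ratio of 1.40.

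Set beside the other gene-dense chromosomes, chromosome 17 had fewer peaks per Mb than chromosome 19 (8.35) and more than chromosomes 16 (3.87) and 22 (2.75). Per 100 protein-coding genes it held more than chromosome 19 (31.5, interval 28.7 to 34.5), chromosome 16 (35.4, 31.6 to 39.6) and chromosome 22 (21.3, 17.3 to 26.1). The intervals of chromosomes 16 and 17 overlapped slightly, with bounds of 39.6 and 39.5. Chromosome 17 ranked 2 of 24 for peaks per Mb and 4 for peaks per 100 genes. Chromosomes 20 (47.2), 15 (46.3) and 10 (45.3) had more per 100 genes. Chromosomes 9 (42.4, 38.0 to 47.2) and 5 (41.6, 37.5 to 46.1) followed closely, so a high rate per gene was not particular to chromosome 17. Over the 24 chromosomes, peaks per Mb and genes per Mb had a Pearson r of 0.906 and a Spearman coefficient of 0.834, a description of points that share 1 pooled library.

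**Figure D1:**
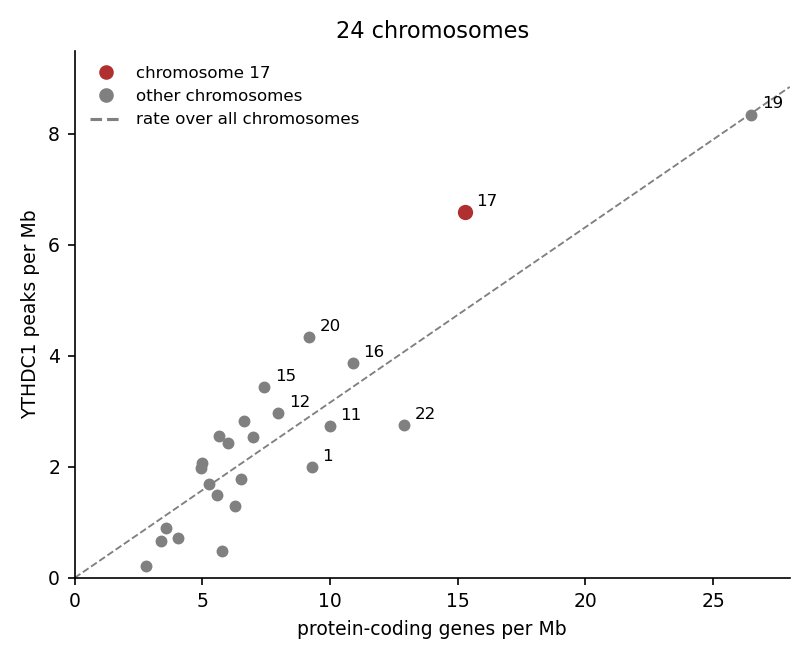
Protein-coding genes per Mb (x axis) and YTHDC1 peaks per Mb (y axis) of the 24 chromosomes, 1 point each, with the dashed line at the rate of peaks per gene over all chromosomes. Chromosome 17, in red, lay above the line with 15.3 genes and 6.59 peaks per Mb, and chromosome 19 lay close to it with 26.5 and 8.35.

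A gene is called bound here when a peak overlapped, by 1 base or more, the 200 bases on both sides of any of its annotated starts. Of the 1189 protein-coding genes of chromosome 17, 260 were bound (21.9%, 95% Wilson interval 19.6 to 24.3), against 15.7% of protein-coding genes over all chromosomes and 15.3% (14.8 to 15.8) outside chromosome 17. Only 1 chromosome had a larger share, and chromosomes 16, 19 and 22 had 18.2%, 17.3% and 10.4%. Chromosomes 5, 10 and 20 (20.1% each) and 9 (19.6%) followed closely, with intervals that overlapped that of chromosome 17. Among lncRNA genes, 71 of 968 were bound (7.33%, 5.86 to 9.15) against 4.03% (3.75 to 4.33) elsewhere, and among miRNA genes 8 of 112 (7.14%, 3.66 to 13.5) against 1.30% (0.946 to 1.77). Neighbouring genes that share a peak both count as bound, so genes are not independent of each other.

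Seen from the peaks, 285 of the 513 lay at a start (55.6%, 51.2 to 59.8), against 53.3% of all peaks and 53.1% of those elsewhere. That share was close to the background, and the larger number of bound genes went with a larger number of peaks. By midpoint, 40.4% fell in start windows, 27.7% in introns (24 to 31.7, against 30.8% elsewhere) and 16.8% between genes (13.8 to 20.2, against 20.3%). Smaller shares fell in non-coding exons (5.65%), 3′ UTRs (3.70%), coding exons (3.12%) and 5′ UTRs (2.73%). Of 316 peaks with a midpoint within 1000 bases of a protein-coding start, 174 lay downstream, 141 upstream and 1 on the start, 55.2% downstream (49.7 to 60.6) against 57.3% elsewhere. Only 10 peaks of chromosome 17 (1.95%) lay over 100 kb from a protein-coding start, against 6.52% of the others.

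The peaks had a median −log10 q of 1.34 (quartiles 1.02 and 2.12), next to 1.33 elsewhere, and 267 of them (52.0%) had a q-value under 0.05. Values over 5 were reached by 22 peaks (4.29%) against 141 (2.41%) elsewhere, and 13 of the 22 lay at a start. On chromosomes 16, 19 and 22 the counts were 11 of 305, 13 of 466 and 0 of 96. Larger shares were seen on chromosomes such as 6 (17 of 218) and 18 (4 of 67), so a high share was not particular to chromosome 17. The median width was 378 bases (quartiles 278 and 498) against 345, and all peaks together covered 226 kb, or 0.290% of the chromosome. Mean GC was 60.6% (SD 11.2 over peaks) against 58.7% (SD 12.4). Peaks at starts had a mean GC of 64.7% and a median −log10 q of 1.40, whereas the 228 peaks away from starts had 55.5% and 1.28.

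Motifs were searched on both strands, and a match describes letters and not a bound site. GGGCGG occurred in 54.4% of the chromosome 17 peaks (50.1 to 58.6), in 48.2% of the peaks elsewhere and in 45.0% of 35116 RefSeq promoters of 300 bases. CCGGAAG, a core of ETS factor sites, was found in 12.7% against 10.9%, with 10.3% of promoters. TATAAA, the TATA box core, was found in 7.99% against 10.7%, with 11.5% of promoters. GTTCGANNC was held by 19 peaks (3.70%, 2.38 to 5.71) against 2.48% elsewhere and 0.829% of promoters. Peaks here were 378 bases wide at the median and promoters 300 bases, so the shares are not over equal lengths. The 3 among the 20 strongest peaks with GTTCGANNC were the pair printed above near HES7 and PER1 and the peak at LINC00854.

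The arms differed little in density. On 17p, from the end to the centromere gap at chr17:22263007-25263006, 151 peaks gave 6.84 per Mb (5.80 to 8.03) and 43.5 per 100 protein-coding genes (36.9 to 51.0). On 17q, 362 peaks gave 6.50 per Mb (5.84 to 7.20) and 43.0 per 100 genes (38.7 to 47.7). The ratio of 17q to 17p was 0.949 per Mb (0.785 to 1.15) and 0.988 per gene (0.817 to 1.19), intervals that include equal density. Starts held 58.9% of the 17p peaks (51.0 to 66.5) and 54.1% of the 17q peaks (49.0 to 59.2), and 24.5% and 20.8% of the protein-coding genes were bound, with overlapping intervals. The median −log10 q was 1.53 on 17p and 1.30 on 17q, while the 3 highest values of the chromosome were all on 17q.

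In windows of 5 Mb, numbered 1 to 17 from the end of 17p, peaks were unevenly spread and mostly followed genes. The 8 windows with 40 peaks or more held 384 peaks (74.9%) and 846 protein-coding genes (71.2%). The 5 windows with fewer than 10 peaks held 30 peaks and 93 genes. Window 17, cut short by the chromosome end, is among them. Its 1.20 Mb held 7 peaks, 5.86 per Mb, and 20.1 genes per Mb. Window 5, also among them, has 2.16 Mb outside runs of N. Over the 17 windows, peaks and genes had a Pearson r of 0.882 and a Spearman coefficient of 0.877. Without windows 5 and 8, whose gene counts were farthest from the median, r was 0.907 over 15 windows. The counts were not divided by window length, which was unequal. Neighbouring windows share the library, depth and base composition, so these are descriptions and carry no p.

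Windows near both ends of the chromosome were dense, and so was window 9 on 17q. Windows 1 and 2, at 17p, held 50 and 52 peaks, and windows 15 and 16, near the end of 17q, held 50 and 53. Window 9 (chr17:40000001-45000000) held 51 peaks and 120 genes, 42.5 per 100, close to the rate of the chromosome. Window 16 (chr17:75000001-80000000) was the fullest and also had the most peaks for its genes, 65.4 per 100 (49.0 to 85.6) for 81 genes. Most of its peaks lay away from starts, with 22 of 53 at a start (41.5%), and 17 of its 81 genes were bound (21.0%), close to the chromosome as a whole. Window 10 (chr17:45000001-50000000) had the largest share of bound genes, 32 of 90 (35.6%, 26.4 to 45.8), with 47 peaks.

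Gene-rich windows with few peaks for their genes lay on the centromere side of 17q. Window 8 (chr17:35000001-40000000) held the most protein-coding genes, 141, but 41 peaks, or 29.1 per 100 genes (20.9 to 39.4), and 18 of its genes were bound (12.8%, 8.23 to 19.3). It contains the keratin clusters, described below. Window 7 (chr17:30000001-35000000), which contains CC chemokine genes, held 16 peaks for 74 genes, 21.6 per 100 (12.4 to 35.1), the lowest rate of the 17. Its 10 bound genes were 13.5% (7.51 to 23.1). In window 14 (chr17:65000001-70000000), 7 peaks lay among 22 genes with a median −log10 q of 0.880, and ABCA5, a lipid transporter of the ABC family, was the 1 bound gene. Its peak (chr17:67323077-67323742) had the window's highest value, 2.00.

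**Figure D2:**
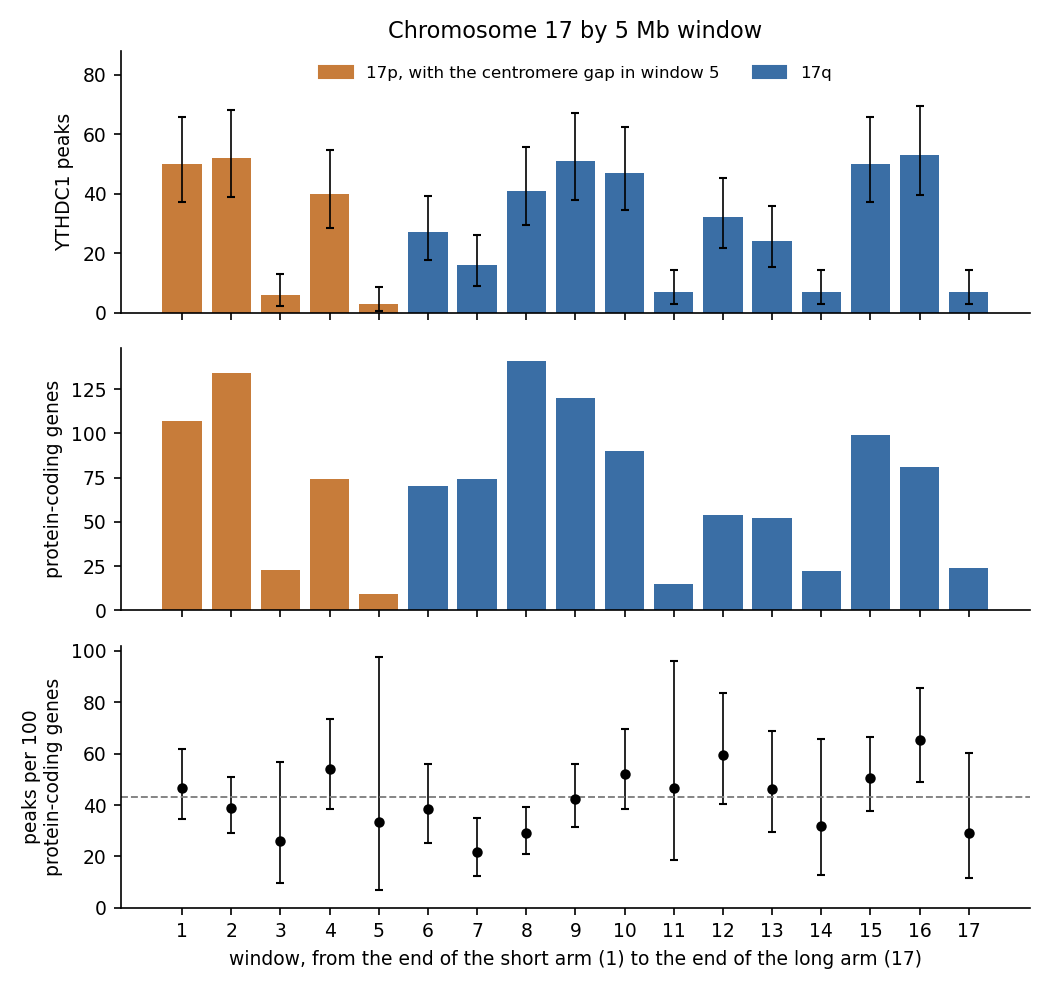
Peaks (top, with 95% Poisson intervals), protein-coding genes (middle) and peaks per 100 protein-coding genes (bottom, with 95% Poisson intervals and a dashed line at the rate of the whole chromosome) in the 17 windows of 5 Mb of chromosome 17, with 17p in orange and 17q in blue. Window 16 had the most peaks, 53, and the highest rate per gene, 65.4, whereas windows 7 and 8 lay below the line at 21.6 and 29.1. Windows 5 and 17 have fewer bases outside runs of N, 2.16 and 1.20 Mb.

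**Figure D3:**
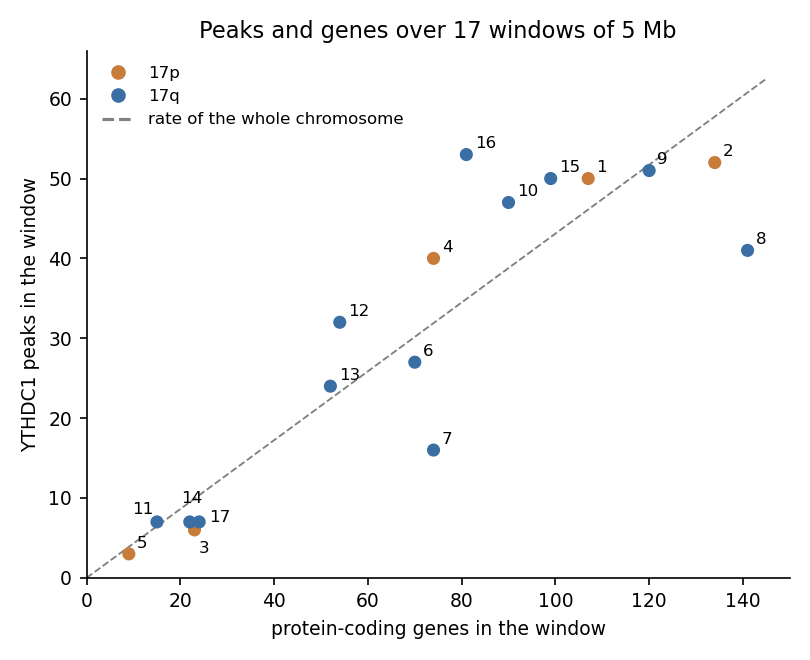
Protein-coding genes (x axis) and peaks (y axis) in each of the 17 windows of 5 Mb, labelled by window number, with the dashed line at 43.1 peaks per 100 genes. Windows 16, 12 and 4 lay above the line and windows 7 and 8 below it. Windows 5 and 17 have only 2.16 and 1.20 Mb outside runs of N.

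The densest 1 Mb stretch, in steps of 100 kb, was chr17:7100001-8100000 with 33 peaks and 71 protein-coding genes, of which 19 were bound. No stretch of that length on another chromosome held more, except on chromosome 6 (35), and the fullest of chromosome 19 held 33 as well. Bound genes there included POLR2A (largest subunit of RNA polymerase II), EIF4A1 (an RNA helicase of translation initiation), CHD3 (a nucleosome remodeller) and KDM6B (a histone demethylase). Also bound were GPS2, a transcription corepressor subunit, DVL2, a Wnt signalling adaptor, and ACADVL, an enzyme of fatty acid oxidation. EIF5A, FXR2, SENP3 and YBX2, in the same stretch, were not bound. The stretch runs on into the tRNA genes described below.

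The next 4 stretches were smaller. On 17q, chr17:73000001-74000000 held 25 peaks and 38 genes, with 12 bound, among them GRB2 (a growth factor receptor adaptor, −log10 q 1.02), SUMO2, H3-3B (the histone variant H3.3, 3.39) and MRPL58 (1.41). On 17p, chr17:1000001-2000000 held 22 peaks and 22 genes, with 9 bound (40.9%), among them ABR, PRPF8, RPA1, YWHAE and HIC1. On 17q, chr17:40500001-41500000 held 21 peaks and 37 genes, with 9 bound, among them STAT3, MLX, RPL27 and VPS25, and it contains the strongest peaks. Close to the end of 17q, chr17:78900001-79900000 held 20 peaks and 34 genes, of which 7 were bound, among them ARHGDIA, HGS, NPLOC4 and SIRT7, with a highest value of 3.0, at ARHGDIA.

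The longest interval without a peak, apart from the centromere gap, was chr17:49358883-52715117, 3356 kb that contain the protein-coding genes CA10 and KIF2B and begin inside UTP18, whose intron 9 holds the peak at the edge (0.657). Next came chr17:67783590-69607386 (1824 kb, with KCNJ16 and KCNJ2, potassium channel genes) and chr17:12928301-14641371 (1713 kb, 4 genes). An interval of 1440 kb at chr17:31139186-32579530 held 4 whole genes. In contrast to these gene-poor intervals, chr17:33914705-35292395 ran for 1378 kb over 34 whole protein-coding genes without a peak, from a peak at the start of AP2B1 onward. CCL3, CCL4, CCL5 and other CC chemokine genes and the TBC1D3 family lie there. The TBC1D3 and CCL3 to CCL4 genes have near-identical copies, to which short reads may not map uniquely, and the mapping filter of the authors is not given in the sources used here.

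Neighbouring peaks were closer than elsewhere, with a median of 64.6 kb between successive midpoints against 144 kb. This spacing goes with the ratio of 3.13 in peaks per Mb, and clustering beyond that density was not tested. Of the 513 peaks, 133 (25.9%) lay within 10 kb of another, in 60 runs, against 20.1% elsewhere. Chromosomes 19 (33.0%) and 21 (28.6%) had larger shares. Chromosomes 6 (25.2%) and 16 (23.6%) came close, with chromosome 22 between them, so a high share was not particular to chromosome 17. The 1 run of 4 peaks spanned 17.8 kb over the end of VMP1 and past MIR21, the gene of a miRNA that is abundant in many tumours. Its first member, chr17:57915525-57918609, was the widest peak of the whole set at 3085 bases, had a −log10 q of 2.94 and ended 18 bases before the MIR21 hairpin (chr17:57918627-57918698). The others followed at chr17:57919591-57920205 (1.70), chr17:57922072-57923183 (3.07) and chr17:57933081-57933326 (2.59). The midpoint of the widest peak lay in the last intron of the reference transcript of VMP1, an autophagy gene whose transcripts overlap the miRNA, and in an exon of a shorter non-coding transcript of that gene. Peaks carry names of merged regions, and how they were merged is not given in the sources used here, so a width or value may belong to several joined calls.

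The next widest peaks lay at genes of several kinds. A peak of 2571 bases (chr17:62223425-62225995, −log10 q 3.25) covered SNORD104, a small nucleolar RNA gene, overlapped SNHG25, its host gene, and reached into the last exon of TEX2. One of 2045 bases (chr17:79825071-79827115, 3.0) covered the last exon of ARHGDIA, a regulator of small GTPases. One of 1499 bases lay over the first exon of MRC2 (chr17:60704304-60705802, 1.32) and one of 1448 at NEK8 and TLCD1 (chr17:27051644-27053091, 1.16). The MRC2 and NEK8 peaks had q-values just under and just above 0.05, and the wider peaks before them had higher values. The 10 widest also included the strongest peak of the chromosome (40.8), described below. The others were at SNHG29 (1219 bases, 1.18), ACADVL (1307 bases, 0.981), ALDH3A1 (1420 bases, 8.19) and PDK2 (1154 bases, 5.97).

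The strongest peaks of chromosome 17 lay close together on 17q, the first of them nearest to TMEM106A among the protein-coding genes. The first, chr17:41399771-41401213, had a −log10 q of 40.8, overlapped no annotated gene and was 1443 bases wide. The second, chr17:41381603-41382486, had 30.4 and lay at a start of LINC00854, a long non-coding RNA gene. The third, chr17:41465967-41466411, had 15.4 and lay at the start of LINC00910, another one. Of all peaks on other chromosomes, 6 were stronger than the first and 9 stronger than the second, and all of these were within 1 Mb of an assembly gap of 50 kb or more, which neither chromosome 17 peak was.

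LINC00910 held 3 further peaks, at 6.30 (at the start of ENSG00000279602, a gene inside it), 4.93 and 1.28. The share of 31-base words with a further copy in the genome was 19.2% in the strongest peak of the chromosome and 11% in the second, while 3 peaks of the chromosome (0.585%) had over 50%. These words were counted in the GRCh37 reference alone, so copies that the assembly lacks were not seen. The part of repeated sequence in these values was not tested.

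**Figure D4:**
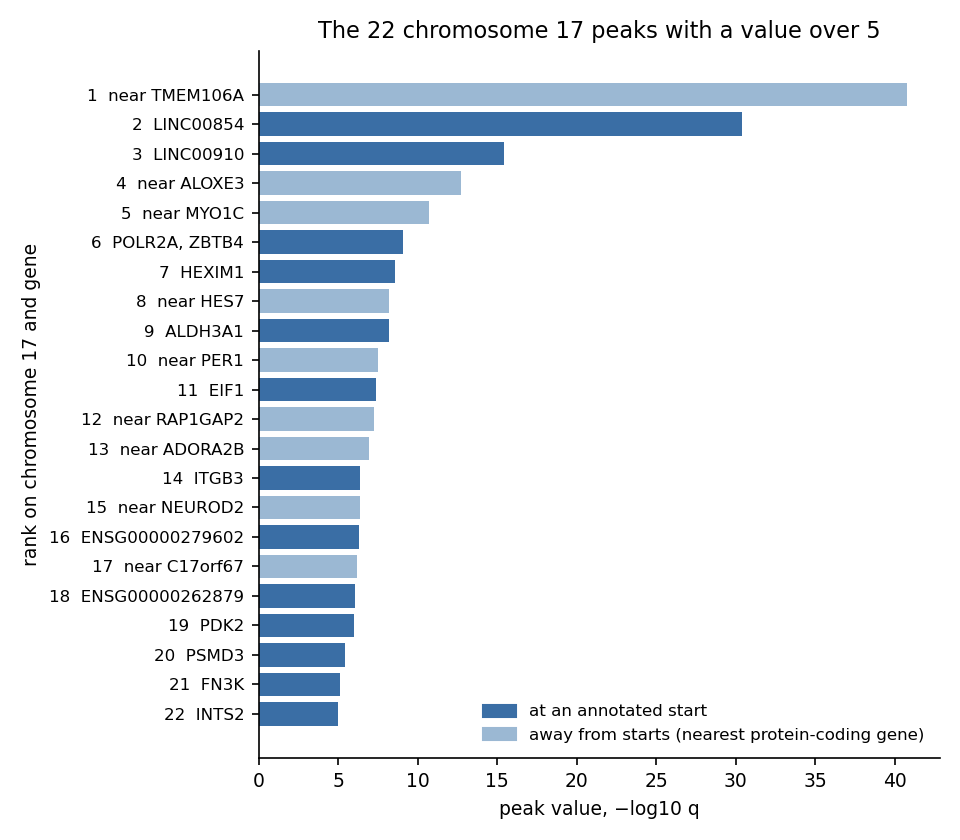
The −log10 q (x axis) of the 22 peaks of chromosome 17 with values over 5, by rank, with the genes at whose start they lay (dark bars) or the nearest protein-coding gene (light bars). The first 2 bars, 40.8 and 30.4, stand far beyond the rest, which fall from 15.4 to 5.01.

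The second group of strong peaks lay among tRNA genes on 17p. Between ALOXE3, a skin lipoxygenase gene, and the clock gene PER1, an interval of 21.4 kb held 4 peaks, with none at an annotated start, but the GRCh37 annotation used here holds no tRNA genes of this chromosome, so their starts could not be counted. They were chr17:8022609-8022844 (3.11), chr17:8023117-8023567 (12.7), chr17:8028870-8029363 (8.20) and chr17:8042331-8043066 (7.49). RefSeq places 7 tRNA genes between the same 2 neighbours, together with HES7, a repressor of the segmentation clock. Those at 8.20 and 7.49 are the ones whose B box letters are printed above, whereas chr17:8023117-8023567, with a mean GC of 35.0%, had no match. Further along, peaks lay at SNORD118 (chr17:8076203-8076980, 3.62), the gene of the U8 small nucleolar RNA, and at MIR3676 (chr17:8090196-8090883, 3.84), with 2 B box matches. One in the last exon of CTC1 (chr17:8129634-8130606, 2.68) had 2 places with a match, of which 1 matched on both strands. MIR3676 was bound, while PER1, ALOXE3 and HES7 were not.

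Strong peaks at protein-coding starts came next. POLR2A had a peak over exon 1 of 30 (chr17:7387655-7388072, 9.10) that lay also at a start of ZBTB4, a gene of the opposite strand. HEXIM1, whose protein holds back the P-TEFb kinase of transcription elongation, had one in its single exon (chr17:43225917-43226678, 8.58), with its midpoint 455 bases downstream of the start. ALDH3A1, an aldehyde dehydrogenase, had a peak in intron 1 (chr17:19650076-19651495, 8.19) that also met a start. EIF1, encoding an initiation factor of translation, had 7.38 (chr17:39845133-39845891). ITGB3, encoding an integrin beta chain, had 6.39 (chr17:45331294-45331980). PDK2, a kinase that inhibits pyruvate dehydrogenase, had 5.97 (chr17:48172133-48173286), and PSMD3, a subunit of the proteasome regulator, had 5.44 (chr17:38136974-38137396). FN3K, a kinase of glycated proteins, and INTS2, a subunit of the Integrator complex, had 5.12 and 5.01, the latter at chr17:60004625-60005434.

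Other strong peaks lay inside or away from genes. MYO1C, encoding an unconventional myosin, had one in intron 25 of 31 of its reference transcript (chr17:1372440-1372896, 10.7), within 1 Mb of an assembly gap. RAP1GAP2, a GTPase activator, had one in intron 4 of 24 (chr17:2863455-2863921, 7.24). NEUROD2, a neuronal transcription factor gene, had one over its coding exon 2 (chr17:37761950-37762841, 6.38). The peak at chr17:15824043-15824409 (6.92) lay 24218 bases upstream of ADORA2B, and that at chr17:54776645-54777323 (6.15) lay 95669 bases downstream of the start of C17orf67. The non-coding gene ENSG00000262879 had a peak at its start (chr17:45144286-45145133, 6.08).

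The genes with most peaks differed in length. ABR, a regulator of small GTPases that spans 226 kb near the end of 17p, had 6, from 0.715 to 1.87, and 4 of these lay at its alternative starts. BCAS3 (715 kb) had 4, with a highest value of 2.02. SAP30BP (40.8 kb) also had 4, up to 2.85, none of them at its own starts. LINC00910 (50.5 kb) had the 4 values of 15.4, 6.30, 4.93 and 1.28 given above. Several genes were tied at 3 peaks. Among them, the short H3-3B had its 3 over 9.46 kb, at its starts (3.39 and 1.26) and over exon 4 (1.78).

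Gene groups were counted next, in lists chosen with earlier results of these data known, beside 21.9% of bound protein-coding genes on the chromosome. Of 13 genes of RNA polymerase II, Mediator and elongation, 4 were bound (30.8%, 12.7 to 57.6): POLR2A (9.10), HEXIM1 (8.58), HEXIM2 (chr17:43238382-43238940, 4.01) and SUPT4H1 (1.90), an elongation factor subunit. CDK12, a kinase of the polymerase, and the Mediator subunit MED1 were not. Of 19 splicing and RNA processing genes, 8 were bound (42.1%, 23.1 to 63.7). They included METTL16, an RNA methyltransferase (0.829 at exon 1 and 3.77 at an alternative start, chr17:2319319-2319608), SMG8, a factor of nonsense-mediated decay (3.73), and PRPF8, the core protein of the spliceosome (3.26). SRSF2, a splicing factor, had 1.92. SRSF1, from the same family, had a peak in the gene 405 bases from its start (0.824) that missed its window, and DDX5, an RNA helicase, had its nearest peak 147477 bases away.

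Genes of translation, chromatin and cell division had shares in the same range. Of 18 genes of the ribosome and translation, 7 were bound (38.9%, 20.3 to 61.4), with EIF1 at 7.38, EIF4A1 at 3.80 and RPL19 and RPL27 at 1.30 and 0.807. Of 20 chromatin regulators, 8 were bound (40%, 21.9 to 61.3), led by H3-3B (3.39), SMARCD2 (a subunit of SWI/SNF remodellers, 2.59), KAT7 (a histone acetyltransferase, 2.52) and SMARCE1 (2.31). BPTF and CBX2, also in the list, were not bound. Of 15 cell division genes, 7 were bound (46.7%, 24.8 to 69.9), with CDC27, a subunit of the anaphase-promoting complex, at 4.77 and the other 6 from 1.11 to 1.19, q-values above 0.05. AURKB, a mitotic kinase, was not bound. The intervals of the splicing and cell division shares lay above 21.9%, but the lists are short and were not tested. That of the transcription factors given next began at 22.2%, barely above it. Its count holds both STAT5A and STAT5B, which were bound through a shared peak. Counting only peaks with a q-value under 0.05, 13% of protein-coding genes on the chromosome were bound, and the cell division share was below it, 1 of 15 (6.67%, 1.19 to 29.8). The share of the ribosome and translation genes then came to 3 of 18 (16.7%, 5.84 to 39.2), that of splicing genes to 6 of 19 (31.6%, 15.4 to 54.0) and that of transcription factors to 6 of 23 (26.1%, 12.5 to 46.5). Of these 4, only the splicing interval lay above 13%.

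Of 23 transcription factors, 9 were bound (39.1%, 22.2 to 59.2). ETV4, of the ETS family, had 3.27, STAT3 had 3.09 just upstream of its start (chr17:40540681-40540975), and SREBF1, a regulator of lipid synthesis, had 1.92. STAT5A and STAT5B, which lie head to head, shared 1 peak (chr17:40440663-40440894, 1.65). SOX9, a developmental factor, was not bound, with the nearest peak 30654 bases away. Of 12 ZNF genes, 5 were bound (41.7%, 19.3 to 68.0), with ZNF18 at 4.10. Of 10 HOXB genes, 2 were bound (20.0%, 5.67 to 51.0), HOXB9 at 3.03 and HOXB5 at 1.12.

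Signalling and metabolic genes lay nearer the chromosome's share. Of 25 growth signalling genes, 7 were bound (28%, 14.3 to 47.6), with TRAF4 at 4.81 and MAP2K3 at 4.06. Of 25 metabolic genes, 5 were bound (20.0%, 8.86 to 39.1), with PDK2 at 5.97 and PEMT at 2.92. FASN, the fatty acid synthase gene, had its nearest peak 41847 bases away. Of 13 DNA repair and damage response genes, 2 were bound (15.4%, 4.33 to 42.2), the stronger at RPA1, a subunit of the single-strand binding protein (1.70). Of 11 cytoskeleton and epithelial adhesion genes, ITGB3 alone was bound (9.09%, 1.62 to 37.7). ACTG1, encoding gamma-actin, and ITGB4, an epithelial integrin, had none nearer than 43133 and 14094 bases. A list of 10 annotated non-coding gene entries was mixed in kind. Of its 4 long non-coding RNA genes, 3 were bound, SNHG25 (3.25), LINC00511 (1.80) and MIR22HG (1.66), beside 7.33% of such genes on the chromosome. Its 1 miRNA gene, MIR21 (2.94), was bound beside 7.14% of miRNA genes. Of its 5 entries for small nucleolar and Cajal body RNA genes, 0 were bound, too few to limit the share below 60%. SCARNA20 was entered more than once among them. On the chromosome, 4.76% of snoRNA genes were bound.

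In the large tissue-restricted families no bound member was found. Of 28 keratin genes, structural proteins of epithelia and hair, 0 were bound, a count that limits the share to 10.7%, and of 34 keratin-associated protein genes of hair 0 were bound, up to 8.82%. KRT27 and KRT10 had a peak inside the gene away from its starts (1.14 and 0.944). Of 19 CC chemokine genes, 0 were bound, up to 15.8%, and of 13 olfactory receptor genes 0, up to 23.1%. The 6 skeletal myosin heavy chain genes also had 0, a number too small to limit the share below 50.0%. For the keratin, keratin-associated and CC chemokine families these limits, and also the Wilson bounds of 12.1%, 10.2% and 16.8%, lay under the chromosome's 21.9%. Against the 13% for q-values under 0.05, the limits of both keratin families lay lower and that of the CC chemokines did not. All these limits take the members as independent, although genes of these families lie in clusters. Of 6 SLFN genes, 1 was bound, SLFN12 (1.09). Transcription of these families in A549 was not analysed here.

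**Figure D5:**
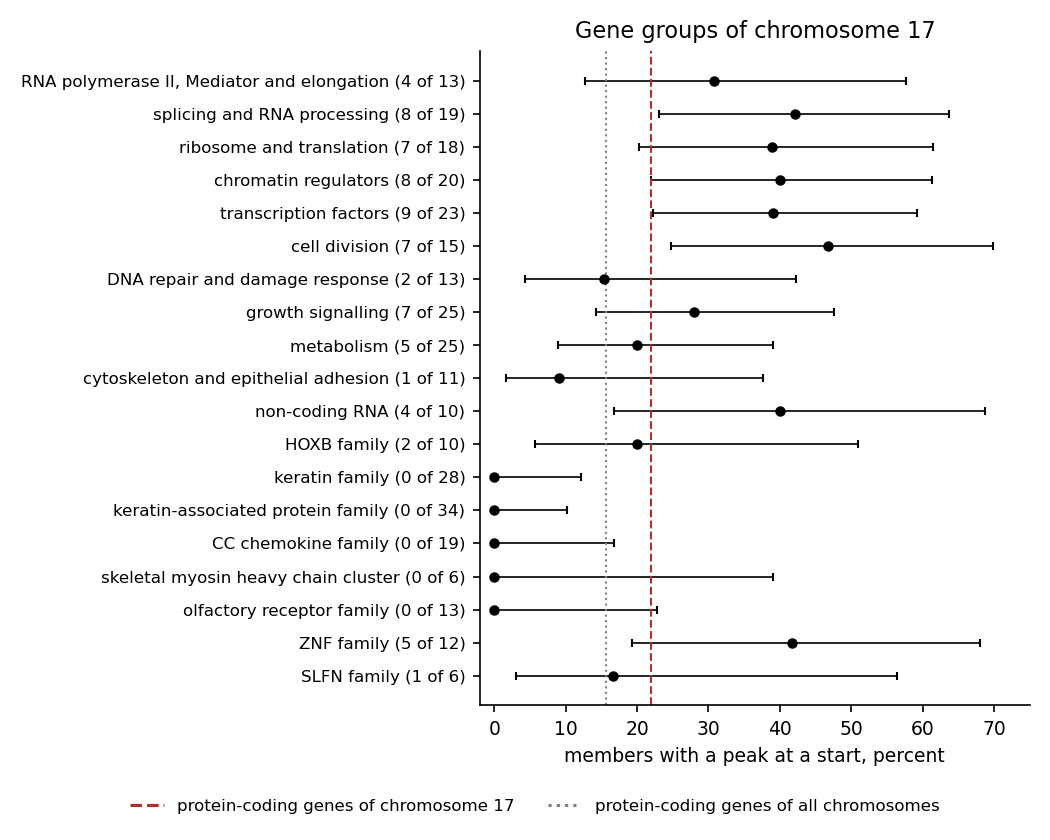
Share of bound genes (x axis, percent, with 95% Wilson intervals) in 19 gene groups of chromosome 17, with bound and counted members in parentheses and lines at 21.9% (chromosome 17, red dashes) and 15.7% (all chromosomes, grey dots), both over protein-coding genes. Cell division and splicing genes lay highest among the functional lists, at 46.7% and 42.1% (6.67% and 31.6% with only q-values under 0.05), and 5 families of tissue-restricted genes stood at 0.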

How the data were processed

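The 3 A549 YTHDC1 ChIP-seq samples form 1 group, assigned from their titles. According to the methods, the authors aligned reads to hg19, pooled the 3 replicates and used MACS2 in broad mode (q-value 0.1, broad cutoff 0.25). The methods name Bowtie2 and the processing notes name BWA, so the aligner is unsettled, and no control library is named. The deposited values are read as −log10 q, an inference from their minimum of 0.610, just above 0.602, which is −log10 of 0.25. Peak names point to a merging step that no source used here describes, so a value or width may belong to a merged region. Depth per sample is unknown. The study describes its experiments as independent.

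Genes and 221291 gene and start pairs came from GENCODE release 44 on GRCh37, which is later than the study's release. Density used bases outside runs of N. Peaks were assigned to windows by midpoint and genes by their outermost start, and coordinates count from 1. Intervals (95% Wilson or exact Poisson) and limits for 0 (3 counts) cover counting error only. Ratio intervals used the Poisson error of both counts. GC, motifs and repeated 31-base words were read from GRCh37. RefSeq promoters and gene order (GRCh38.p14) gave motif shares and names only. Overlap and repeat functions were tested on simulated data. Python 3.11.15, pandas 2.3.3, scipy 1.17.1, pysam 0.24.0 and matplotlib 3.10.9 were used.

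The members, lists and alternatives were chosen with earlier results of these data known. Named genes are the 20 strongest and 10 widest peaks, bound genes of the 5 densest stretches and the 5 genes with most peaks. Of these 5, H3-3B was taken from several genes tied at 3 peaks. Also named are the highest bound and first unbound members of each list, and 15 genes whatever their values. FN3K and INTS2, ranked 21 and 22, complete the peaks over 5 and were added after their values were seen. The peaks at SNORD118, MIR3676 and CTC1, the neighbours of the tRNA interval and the other unbound examples were too. No chance test was made. Some withheld items are left out.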

Additional observations from a re-analysis of the deposited data

How the results depend on the processing

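Each of 11 results was recomputed under its alternatives, 39 in all. In 21 the value stayed within the 95% interval of the reported one (counts: within 1.5 times), and in 18 it moved. Keeping only the 267 peaks with a q-value under 0.05 gave 3.43 peaks per Mb, 22.5 per 100 protein-coding genes, 13% of genes bound, 31 peaks in the fullest 5 Mb window, 19 in the fullest 1 Mb stretch, a median −log10 q of 2.03 and a mean GC of 61.7%. With fewer peaks the counts fall by construction. Taking all annotated genes as the reference gave 16.1 peaks per 100 genes and 11% bound. For the share of peaks at starts and of genes bound, windows of 500 bases gave 64.7% and 26.4%, windows of 1000 bases 71.7% and 28.8%, the midpoint rule 40.4% and 15.2%, and 1 canonical start per gene 40.9% and 15.9%. Starts of protein-coding genes alone held 48.1% of the peaks. The gene groups were also recounted with q-values under 0.05, an alternative chosen after seeing the data. The shares of 16 of 19 stayed within their intervals, and those of cell division, ribosome and translation and SLFN genes fell to 6.67%, 16.7% and 0%. Leaving out peaks within 1 Mb of assembly gaps moved none of the 11 results. The ratio of 17q to 17p per gene, 0.988, ran from 0.867 to 1.06 across its 3 alternatives, on both sides of 1 and within its interval, so no order of the arms is read from it.

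The file limits all of this. Without values per replicate, leaving out a replicate could not be run, and without depth or a control library a peak's value cannot be set against background signal. No paired analysis was possible because the samples are 1 group and were pooled before peak calling.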
